A study of Arabidopsis thaliana with 9 samples.

Results

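QQS (QUA-QUINE STARCH, AT3G30720) is an orphan gene of Arabidopsis thaliana, and it was followed here through the inflorescence tips of 3 genotypes. It was chosen by name, as the 1 probe set whose platform annotation is exactly QQS, and because earlier results of these data had shown a graded signal over the genotypes. It is 1 of 13356 genes that have a probe set assigned to them alone in the platform annotation used here. Its probe set is 1 of 22746 that were measured besides controls. The signals of QQS in the 3 genotypes are therefore given as a description, with no test.

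An orphan gene encodes a protein without a recognizable relative in other species. Lowering QQS expression is known to raise the starch content of Arabidopsis leaves, and raising it shifts carbon and nitrogen allocation toward protein. The small QQS protein binds NF-YC4, a subunit of the nuclear factor Y transcription factor. The QQS transcript is also known for varying between natural lines together with DNA methylation at its locus.

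The series holds 9 Affymetrix arrays, 3 for each genotype, and the number of arrays limits the precision. The er-2 plants carry a mutant allele of ERECTA, a receptor-like kinase of stem and pedicel growth. The epfl4 epfl6 plants carry mutations in 2 genes for secreted peptides that act as ERECTA ligands. The wild type (WT) is Col-0, the background given for all samples. Tissue of all genotypes was taken 33 days after germination from untreated plants on soil under constant light. The tissue is labelled as developing inflorescence tips in one place and as flower buds in another, and the number of plants behind a sample is not given in the sources used here. ER, EPFL4 and EPFL6 had no probe set assigned to them alone and were not analysed here, so the signals gave no check of the genotype labels.

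Of 17 floral and anther markers, 6 were measured, that is, had a probe set assigned to them alone in the platform annotation. Listed genes not measured in this sense, here and below, may still be on the array. The annotation does not list 8730 of the 22746 probe sets. The tapetum regulator AMS had a log2 signal of 8.10 to 8.68 over the 9 arrays, and AT5G07230 had 9.95 to 11.24. UFO, a floral meristem gene, had 3.44 to 3.77, little above the lower quartile of an array (3.22 to 3.33), and the anther gene ATA27 ranged from 2.36 in epfl4 epfl6 to 9.54 in WT. The 3 measured photosynthesis genes of 9, RCA, LHCB4.1 and PSAN, lay between 10.82 and 12.25. The root genes PYK10, EXPA7 and EXPA18, the 3 measured of 7 root and pollen markers, lay between 2.47 and 3.31, near or below that quartile.

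QQS had a log2 signal of 8.47, 9.05 and 8.84 on the er-2 arrays, 5.87, 6.03 and 5.71 on the epfl4 epfl6 arrays, and 10.43, 10.20 and 10.31 on the WT arrays. The signal was thus intermediate in er-2 and lowest in epfl4 epfl6, and no array of one genotype reached into the range of another. The means were 8.78 ± 0.29 in er-2, 5.87 ± 0.16 in epfl4 epfl6 and 10.31 ± 0.11 in WT (SD, n = 3 each).

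**Figure D1:**
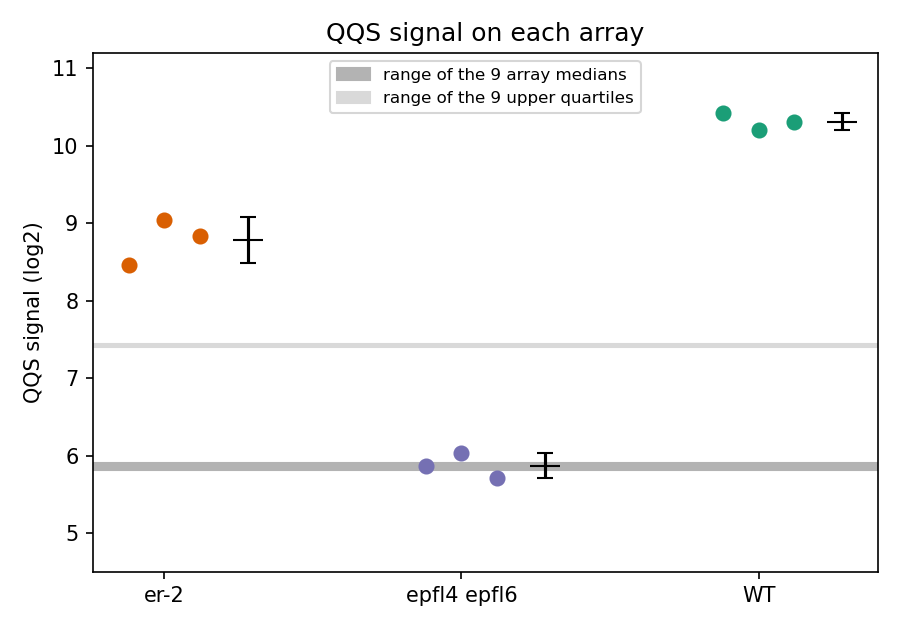
QQS signal (log2, vertical axis) on each of the 9 arrays by genotype, with the mean and SD of 3 arrays beside the points. The bands are the ranges of the array medians and upper quartiles over the 9 arrays; the er-2 and WT points lie above the upper quartiles and the epfl4 epfl6 points around the medians, which locates the signal on the array's scale and is no rank of abundance.

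Against WT, the log2 difference amounted to −1.53 ± 0.18 in er-2 and to −4.44 ± 0.11 in epfl4 epfl6 (SE from the 6 arrays compared). On the linear scale the er-2 signal was 34.6% of that in WT, a 2.89-fold lower signal, and the epfl4 epfl6 signal was 4.59% of that in WT, 21.8-fold lower. Between the mutants, er-2 was higher than epfl4 epfl6 by 2.91 ± 0.19, or 7.54-fold. Both mutant differences use the same 3 WT arrays.

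The lowest QQS signals, in epfl4 epfl6, stayed above the lower quartile of every array (3.22 to 3.33). Signals of different probe sets are not levels on 1 scale, so QQS is not ranked by signal among other transcripts. In whole tips, fewer cells with the transcript and less transcript per cell cannot be told apart.

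The distance between genotypes exceeded the spread of replicates at each step. The lowest WT array stood 1.16 above the highest er-2 array, and the lowest er-2 array 2.44 above the highest epfl4 epfl6 array. The widest spread within a genotype was 0.58, in er-2, where replicate 1 was the lowest array. Arrays lower in er-2 than in WT with no overlap were found for 15.9% of probe sets, and for epfl4 epfl6 against WT the figure was 21.4%. For epfl4 epfl6 below er-2 it was 19.2%. These shares are given only as background, because these contrasts chose the gene.

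Few transcripts had such a graded signal with steps of this size. In 805 of 22746 probe sets, or 3.54%, the 3 genotypes did not overlap and stood in the order WT above er-2 above epfl4 epfl6. The reverse order was found for 1022 probe sets, and any of the 6 orders without overlap for 12.5%. Among the 805, the smaller of the 2 gaps between adjacent genotypes had a median of 0.07, and QQS had the largest, 1.16, ahead of 0.72 for the next probe set. Over all orders QQS ranked as number 2, after BGLU28, a β-glucosidase family gene with a smaller gap of 1.36, whose signal was lowest in er-2.

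Of the 805 probe sets, 12 were lower by at least 2-fold at each step, and 8 of these were assigned to 1 gene. Besides QQS they were AT1G20150, AT3G57620, AT1G23560, AT5G14980, AT1G75920, AT2G42480 and AT4G12930. Their gaps reached at most 0.29, in AT2G42480, and their pooled SD within genotypes was 0.37 to 0.65. For QQS the pooled SD was 0.20.

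**Figure D2:**
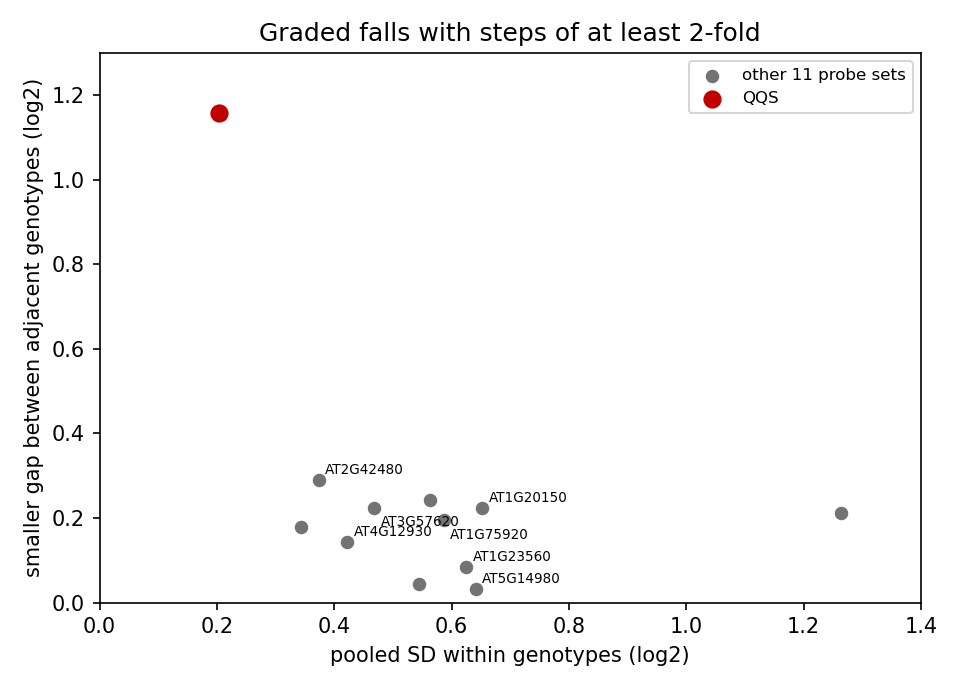
The 12 probe sets whose signal was lower by at least 2-fold both from WT to er-2 and from er-2 to epfl4 epfl6 without overlap, with the pooled SD within genotypes (log2, horizontal axis) and the smaller of the gaps between adjacent genotypes (log2, vertical axis). QQS, in red, stands at a pooled SD of 0.20 and a gap of 1.16; points without a name are probe sets with no single gene in the annotation.

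By size alone, the QQS difference ranked at number 12 from the lowest of 22746 in epfl4 epfl6 against WT, and at number 54 in er-2 against WT. Of the 11 probe sets with a larger difference in epfl4 epfl6, 8 were assigned to 1 gene. They were ATA27, an anther gene, SHT, which encodes an acyltransferase of the tapetum, and AT1G68875, AT5G13380, AT5G48210, AT5G16960, AT1G20150 and AT1G30020, known here by locus tag. In 2 of these 11 probe sets the genotypes stood in the same order without overlap.

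In er-2 QQS reached 34.4% of its epfl4 epfl6 difference on the log2 scale. For the 359 probe sets at least 2-fold lower in epfl4 epfl6 than in WT, this share had a median of 46.9%, with quartiles of 31.3% and 67.7%. The er-2 value of QQS was thus within the middle range of these probe sets, and 149 of them (41.5%) had the same order without overlap.

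The 10 genes with the profile nearest to QQS differed from it by a root mean square of 0.593 to 0.801 over the 9 arrays, after each gene was centred on its own WT mean. In order of likeness they were AT1G02813, AT5G16960, AT4G14815, AT5G17340, SHT, AT3G57620, AT2G28680, AT1G20120, AT1G30020 and AT5G48210. A further 5 probe sets without a single gene were nearer than the last of these. AT1G02813, the nearest gene, had 8.53, 9.62 and 8.63 in er-2, 5.33, 5.89 and 6.52 in epfl4 epfl6, and 9.80, 10.55 and 9.56 in WT. SHT had 5.61, 7.67 and 5.47 in er-2, 3.28, 3.86 and 3.34 in epfl4 epfl6, and 8.55, 8.56 and 7.35 in WT. In both genes the highest er-2 array overlapped the WT range.

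Within genotypes the profiles of these genes and of QQS took different courses. In 10 of the 10 genes er-2 replicate 2 was the highest er-2 array and WT replicate 3 the lowest WT array. QQS shared the first of these traits, with 9.05 on er-2 replicate 2, whereas its WT replicate 3, at 10.31, lay between the other WT arrays. The pooled SD of the 10 genes was 0.47 to 0.96, and 1 of them, AT3G57620, showed the graded order without overlap. These genes were picked for likeness over the same arrays, so no test was made of them.

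**Figure D3:**
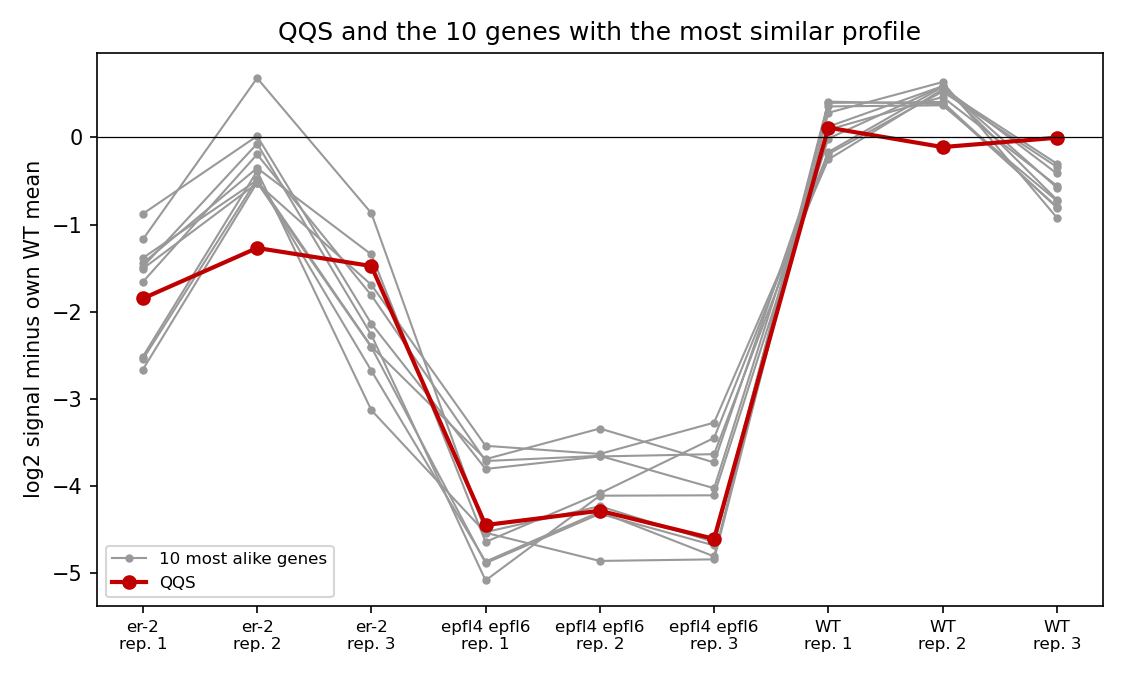
Log2 signal minus the gene's own WT mean (vertical axis) on the 9 arrays, for QQS in red and for the 10 genes with the most similar profile in grey. The grey lines share a high er-2 replicate 2 and a low WT replicate 3, while the 3 WT values of QQS lie within 0.22 of each other.

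The same pattern of arrays ran through the larger set of strong differences. Of 36 probe sets at least 8-fold lower in epfl4 epfl6 than in WT, 34 were highest on replicate 2 among the er-2 arrays, and 27 were also lowest on replicate 3 among the WT arrays. Their pooled SD ranged from 0.20 to 1.43 with a median of 0.73, and that of QQS was the lowest of the 36. The spread of QQS was above the median of all probe sets, 0.10, and above that of the 452 with a WT mean within 0.5 of its own, 0.07. The 36 include the 10 genes most like QQS, so they are no separate instance of the array pattern. The share of all probe sets with this pattern is not given here.

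Of the RNA quality controls, the 3′ minus 5′ difference ran in the order of the QQS signal, and the ribosomal RNA control did so only in part. The mean log2 difference between the 3′ and 5′ control probe sets of actin, GAPDH and ubiquitin was 2.08 to 2.22 on the er-2 arrays, 1.61 to 1.72 on the epfl4 epfl6 arrays and 2.30 to 2.58 on the WT arrays, in the same order as QQS. The 25S ribosomal RNA control was 11.77 to 11.96 in er-2, 11.16 to 11.46 in epfl4 epfl6 and 11.81 to 11.86 in WT, so it was low in epfl4 epfl6 and overlapped between er-2 and WT. With the 3′ minus 5′ difference as a covariate, a fit added after seeing the data, the QQS difference amounted to −1.36 ± 0.28 in er-2 and to −4.02 ± 0.59 in epfl4 epfl6 against WT (SE of the limma fit).

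**Figure D4:**
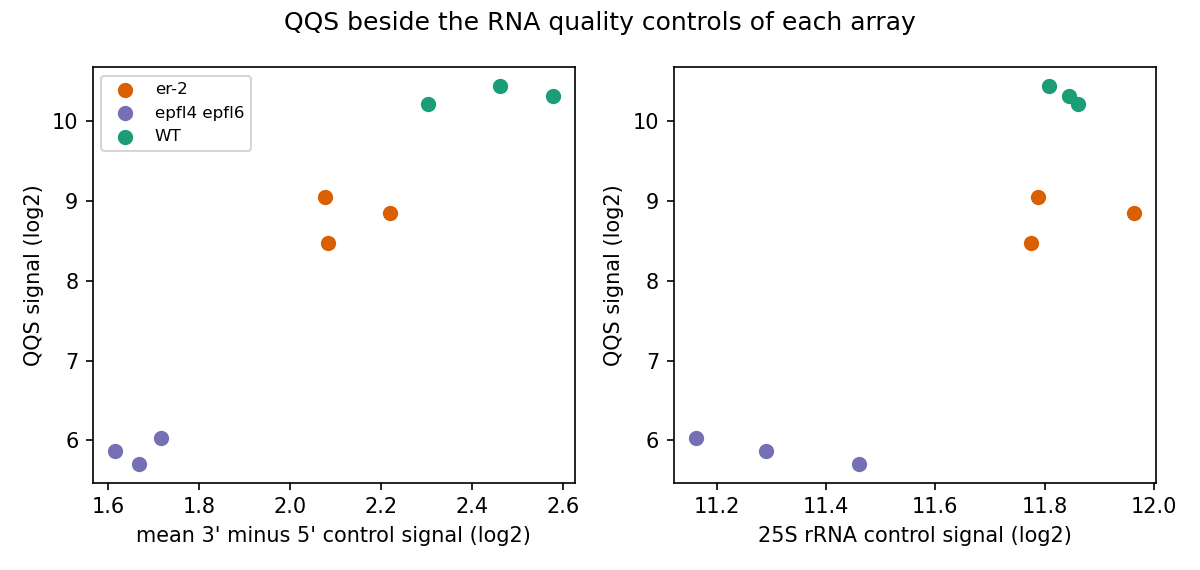
QQS signal (log2, vertical axes) against the mean 3′ minus 5′ value of the actin, GAPDH and ubiquitin controls (left) and the 25S rRNA control (right), both log2, 1 point per array. The genotypes form separate groups on the left; on the right er-2 and WT share a range of the control at different QQS signals.

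The summed log2 signal of the 6 floral and anther markers was 41.2 to 44.6 in er-2, 37.1 to 38.5 in epfl4 epfl6 and 45.2 to 47.4 in WT. ATA27 carried most of this, with a difference from WT of −1.98 in er-2 (limma adjusted p = 0.0877) and of −6.34 in epfl4 epfl6 (adjusted p = 0.000175). Without it, a sum added after seeing the data, the other 5 gave 35.5 to 36.2 in er-2, 34.7 to 35.7 in epfl4 epfl6 and 37.0 to 37.8 in WT, so the mutants overlapped in this sum and both lay below WT. Of these 5, AT5G07230 alone stood in the order of QQS without overlap, with a smaller gap of 0.023. Its differences from WT were −0.36 in er-2 (limma adjusted p = 0.091) and −0.83 in epfl4 epfl6 (adjusted p = 0.00107). The summed log2 signal of the 3 photosynthesis genes was 35.5 to 35.8 in er-2, 35.3 to 35.6 in epfl4 epfl6 and 34.3 to 34.7 in WT. Lower calls in er-2 were made for 2 of the 6 floral and anther markers, beside 9.01% of all probe sets, and in epfl4 epfl6 for 4, beside 16.0%. In epfl4 epfl6 ATA27 had 2.36, 2.80 and 2.67, below the lower quartile of each array, against 9.13, 9.54 and 8.19 in WT. In both mutants the 3 photosynthesis genes were called higher, beside 11.8% of all probe sets in er-2 and 17.9% in epfl4 epfl6, and none of the root genes was called. The 3′ minus 5′ value did not overlap between the genotypes, so the covariate fit cannot tell RNA quality and genotype apart. The part of tissue makeup or RNA quality in the QQS signal was not tested.

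Of 45 listed genes of starch metabolism, to which the name of QQS refers, 8 were measured in the sense given above. In er-2 against WT 2 rose, 1 fell and 5 were not called, beside 11.8% of all probe sets called higher and 9.01% called lower. In epfl4 epfl6 against WT it was again 2, 1 and 5, beside 17.9% higher and 16.0% lower. In either direction, 37.5% of the 8 were called in each mutant, beside 20.8% of all probe sets in er-2 and 33.9% in epfl4 epfl6. A call is a limma adjusted p under 0.05 over all 22746 probe sets. Over the 8 genes the log2 difference had a median of 0.15 in er-2 against 0.10 in epfl4 epfl6, beside 0.015 and −0.00075 over all probe sets.

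Among the synthesis genes, APL3 and APL4 encode large subunits of ADP-glucose pyrophosphorylase, which makes the glucosyl donor for starch. APL3 had 5.72, 5.54 and 5.79 in er-2, 5.71, 5.69 and 5.88 in epfl4 epfl6, and 5.26, 5.27 and 5.44 in WT. It was higher in both mutants, with no overlap with WT. The rise amounted to 0.36 ± 0.09 in er-2 (SE; adjusted p = 0.0158, limma) and to 0.44 ± 0.09 in epfl4 epfl6 (adjusted p = 0.00327). The call in er-2 ended when WT replicate 1, WT replicate 2, er-2 replicate 1 or er-2 replicate 3 was left out, with an adjusted p of 0.00673 to 0.0584 over the alternatives other than the covariate.

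APL4 had 5.81, 5.57 and 5.53 in er-2, 6.13, 5.91 and 5.99 in epfl4 epfl6, and 6.24, 6.20 and 6.43 in WT. It was lowest in er-2, the opposite order of the mutants from that of QQS. The fall was 0.66 ± 0.10 on the log2 scale in er-2 (SE; adjusted p = 0.00116, limma), and the log2 difference in epfl4 epfl6 was −0.29 (adjusted p = 0.0425). The call in epfl4 epfl6 ended with quantile normalization again, with median centring and without any of WT replicate 1, WT replicate 3, er-2 replicate 2, or epfl4 epfl6 replicate 2 or 3 (adjusted p from 0.0293 to 0.14). The difference between the mutants was −0.37 (adjusted p = 0.0217), a call that ended when er-2 replicate 2, er-2 replicate 3, epfl4 epfl6 replicate 1 or epfl4 epfl6 replicate 3 was left out (0.012 to 0.0785).

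SBE2.2, a starch branching enzyme gene, had log2 differences of −0.11 in er-2 (adjusted p = 0.472) and −0.23 in epfl4 epfl6 (adjusted p = 0.0924, limma). AT5G39790, known here by locus tag, rose by 0.18 in epfl4 epfl6 (adjusted p = 0.0233), a call that ended in the fit on 6 arrays, in the blocked fit on replicate numbers (adjusted p just above 0.05), and when replicate 1 or 2 of WT or of epfl4 epfl6 was left out (0.0062 to 0.0707). In er-2 its difference was −0.046 (adjusted p = 0.612). Its call between the mutants, −0.23 (adjusted p = 0.0141), ended when er-2 replicate 1 was left out (adjusted p = 0.0533).

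The breakdown genes measured were both dikinase genes that the annotation lists as PWD, AMY1 and DPE1. AT5G26570 encodes the phosphoglucan water dikinase, which phosphorylates starch during its breakdown. AT4G24450 carries the synonym ATGWD2, and a role in starch breakdown is not assumed for it here. It is still counted among the 8 starch genes, as 1 of the 2 called higher in er-2. Its signals were 7.22, 7.08 and 7.15 in er-2, 6.54, 6.38 and 6.37 in epfl4 epfl6, and 6.61, 6.44 and 6.59 in WT. AT4G24450 rose by 0.60 ± 0.08 in er-2 (SE; limma adjusted p = 0.000514), differed by −0.12 in epfl4 epfl6 (adjusted p = 0.266), and was higher in er-2 than in epfl4 epfl6 by 0.72 (adjusted p = 0.000304). AT5G26570, the α-amylase gene AMY1 and the disproportionating enzyme gene DPE1 were not called in any comparison, with differences from WT of 0.08 to 0.23.

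Between er-2 and epfl4 epfl6, 3 of the 8 starch genes were called, beside 20.2% of all probe sets. AT4G24450 was higher in er-2, while APL4 and AT5G39790 were lower in er-2. The QQS signal was also higher in er-2 than in epfl4 epfl6, by 2.91.

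The other lists on sugar, nitrogen and silencing had 9 measured genes. SWEET11, a sucrose exporter of the phloem, had 7.62, 8.01 and 7.40 in er-2, 6.25, 6.46 and 6.43 in epfl4 epfl6, and 5.79, 6.06 and 5.93 in WT. Like QQS it separated the 3 genotypes without overlap, but with er-2 above epfl4 epfl6 above WT. The rise in er-2 was 1.75 ± 0.14 (SE; limma adjusted p = 3.94e-05), and that in epfl4 epfl6 was 0.46 (adjusted p = 0.029), a call that ended when replicate 1 or 3 of WT, or 2 or 3 of epfl4 epfl6, was left out (0.00607 to 0.0974). With the 3′ minus 5′ value as a covariate the SWEET11 difference in epfl4 epfl6 turned to −0.22 (adjusted p = 0.926).

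ATSPS4F, a gene of sucrose-phosphate synthase, had 5.36, 5.54 and 5.43 in er-2, 4.66, 4.82 and 4.77 in epfl4 epfl6, and 5.23, 5.44 and 5.35 in WT. It was low in epfl4 epfl6 alone, where it fell by 0.59 ± 0.08 on the log2 scale (SE; adjusted p = 0.000384, limma). In er-2 its difference was 0.11 (adjusted p = 0.386), and the mutants differed by 0.70 (adjusted p = 0.000447). AT1G62660, the third gene of this list, was not called against WT.

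Both measured nitrogen genes encode asparaginases, which release ammonium from asparagine. ASPGB1 had 6.71, 6.63 and 6.83 in er-2, 6.91, 6.89 and 6.98 in epfl4 epfl6, and 7.98, 7.88 and 7.75 in WT. The log2 fall was 1.15 ± 0.08 in er-2 (SE; adjusted p = 1.31e-05, limma), and the epfl4 epfl6 arrays fell by 0.94 ± 0.08 (adjusted p = 3.42e-05). Neither mutant overlapped WT. ASPGA1 had 8.66, 8.64 and 8.71 in er-2, 8.54, 8.52 and 8.51 in epfl4 epfl6, and 8.76, 8.81 and 8.74 in WT. It thus stood in the order of QQS without overlap, as did 3.54% of all probe sets, with a smaller gap of 0.027. ASPGA1 in epfl4 epfl6 fell by 0.25 (limma adjusted p = 0.00508), while in er-2 its difference was −0.098 (adjusted p = 0.24). The mutants differed by 0.15 (adjusted p = 0.0744).

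The β subunit genes of SnRK1, a kinase of the response to low sugar, were the 3 measured genes of their list. AKINBETA1 had 8.46, 8.53 and 8.65 in er-2, 7.97, 7.99 and 8.11 in epfl4 epfl6, and 8.09, 8.34 and 8.19 in WT, so er-2 lay above both other genotypes. It rose by 0.34 in er-2 (limma adjusted p = 0.0158), a call that ended without WT replicate 1 or er-2 replicate 3 (0.00346 to 0.0573), and had a difference of −0.18 in epfl4 epfl6 (adjusted p = 0.119). The mutants differed by 0.52 (adjusted p = 0.00228). AT4G16360 and AT2G28060 were not called in any comparison.

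**Figure D5:**
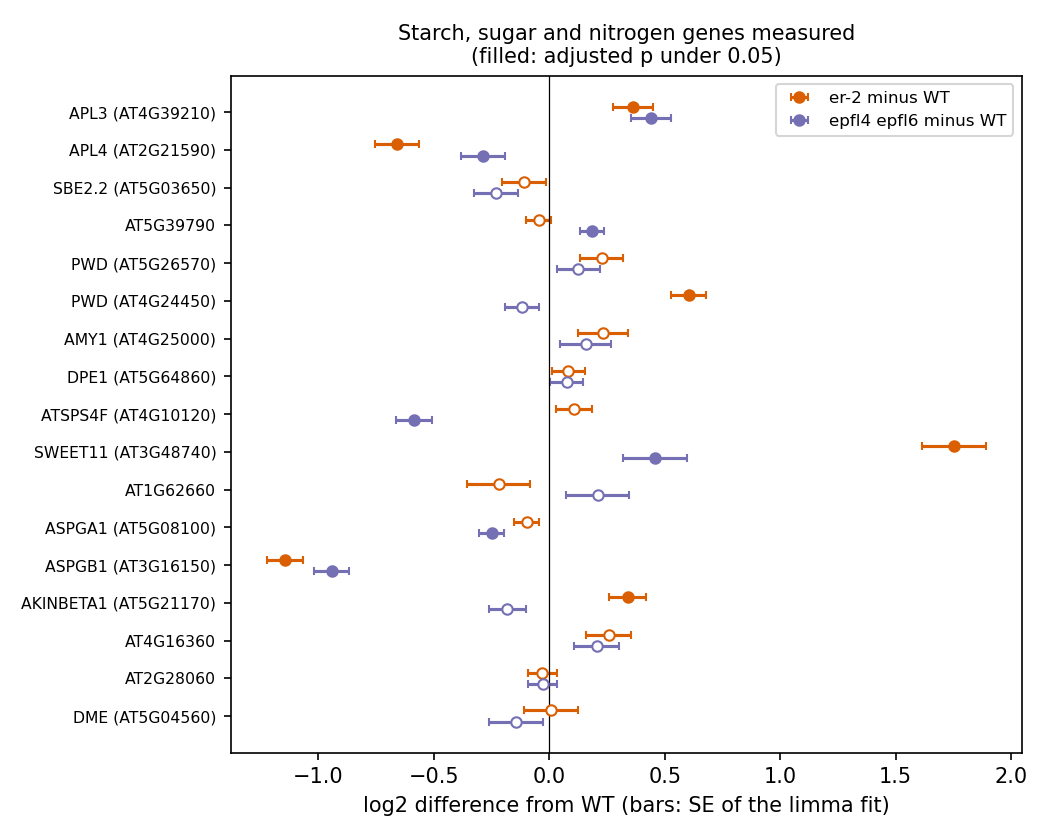
Log2 differences from WT (horizontal axis) in er-2 and in epfl4 epfl6 for the 17 measured genes of the starch, sucrose, nitrogen, SnRK1 and silencing lists, with the SE of the limma fit; filled points passed the adjusted p of 0.05. SWEET11 in er-2 (1.75) and ASPGB1 in both mutants (−1.15 and −0.94) lie farthest from 0.

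Over the 7 lists, 17 of 182 genes were measured, and 6 were called in er-2 against WT (20.8% of all probe sets were), 7 in epfl4 epfl6 against WT (33.9%) and 6 between the mutants (20.2%). With the 3′ minus 5′ value as a covariate, SWEET11, ASPGB1 and AT4G24450 kept their call in er-2 against WT, and none was called in the other comparisons. Of the 28 listed nuclear factor Y genes, the family of the QQS partner, none had a probe set assigned to it alone in the annotation. They were not analysed here, and whether the probe sets not listed in the annotation include them was not examined.

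DME, which encodes a DNA glycosylase that removes methylated cytosine, was the 1 measured gene of 35 in DNA methylation and silencing. Its 3 probe sets disagreed. The one with the highest mean, used for the counts, was not called, with a difference of 0.0067 in er-2 and −0.14 in epfl4 epfl6. Another had 6.51, 6.60 and 6.60 in er-2, 5.89, 6.14 and 6.02 in epfl4 epfl6, and 6.77, 6.83 and 6.92 in WT, with differences of −0.27 (limma adjusted p = 0.0308) and −0.82 (adjusted p = 5.75e-05). This probe set was also called between the mutants, with a difference of 0.55 (adjusted p = 0.00125). It stood in the order of QQS without overlap, with a smaller gap of 0.17. The remaining one was not called.

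The measured genes next to QQS on chromosome 3 had low signals and no call. Of the 10 genes on each side in the RefSeq order, 15 of 20 are pseudogenes, and 2 had a probe set assigned to them alone. AT3G30730 had 2.39, 2.32 and 2.36 in er-2, 2.32, 2.39 and 2.51 in epfl4 epfl6, and 2.16, 2.24 and 2.26 in WT, with a difference of 0.13 in er-2 (limma adjusted p = 0.192) and 0.18 in epfl4 epfl6 (adjusted p = 0.052). AT3G30740 reached at most 2.46 in any genotype (adjusted p = 0.579 in er-2 and 0.806 in epfl4 epfl6). Both were below the lower quartile of every array, and no detection call was at hand for them.

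In a wider window of 50 genes on each side, added after seeing the data, 18 genes were measured and 1 was called against WT, the same gene in both mutants, beside 20.8% of all probe sets in er-2 and 33.9% in epfl4 epfl6. This was bZIP42, a transcription factor gene 46 places away, with 3.84, 3.96 and 3.78 in er-2, 3.29, 3.29 and 3.46 in epfl4 epfl6, and 2.85, 2.95 and 2.89 in WT. The rise amounted to 0.96 in er-2 (limma adjusted p = 2.87e-05) and to 0.45 in epfl4 epfl6 (adjusted p = 0.00114), the opposite direction from the QQS difference. In WT the bZIP42 signal was under the lower quartile of its array in each replicate. The 18 genes had log2 signals of 2.08 to 3.96, and 12 of them did not rise to the lower quartile on any array. The shares over all probe sets are thus no matched background, and probe sets of like signal were not compared.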

How the data were processed

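Total RNA of 9 samples was made into biotinylated cRNA with a 3′ IVT kit for 1-colour Affymetrix arrays, per the labels' protocols. The deposited table holds log2 signals, 1 per probe set and array; RMA and limma are named in the submitters' processing notes, and their versions are not given in the sources used here. All signals entered the tests as deposited. Of 22810 probe sets, 64 controls were left out; 13513 had 1 gene, 503 several and 8730 were not listed in the platform annotation. Symbols and gene order came from a RefSeq table, whose build was not matched to the array, so no coordinates are given.

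limma 3.58.1 in R 4.3.3 was fitted to all 9 arrays with 1 mean for each genotype, with two-sided tests and Benjamini-Hochberg adjustment over 22746 probe sets, and was tested on simulated data. QQS itself was not tested. A gene with several probe sets was read from the one with the highest mean. The genes named are QQS, measured members of the lists (up to 6 each), neighbours that were called or nearest, named probe sets with a larger difference than QQS, the 10 most alike, and the genes of the graded set and BGLU28, these last chosen after their values were seen. The gene and the 10 lists of 215 members were chosen with earlier results of these data known. The deviations of same-numbered arrays of different genotypes had correlations from −0.19 to 0.29, highest for replicate 2 of er-2 and WT. Replicate numbers were not taken as pairs in the main fit, and a block on them was an alternative.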

Additional observations from a re-analysis of the deposited data

How the results depend on the processing

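The QQS differences kept their sign under all alternatives. Leaving out each array in turn gave −1.66 to −1.37 for er-2 minus WT, −4.53 to −4.36 for epfl4 epfl6 minus WT and 2.78 to 3.07 for er-2 minus epfl4 epfl6. Quantile normalization again, median centring, mean linear signals and the replicate block, in which the differences stayed at −1.53, −4.44 and 2.91, moved them by less than the pooled SD of 0.20. With the 3′ minus 5′ control difference as a covariate, epfl4 epfl6 minus WT moved to −4.02 and er-2 minus epfl4 epfl6 to 2.66. Their standard errors were 4.24 and 2.63 times as large. In the same fit er-2 minus WT was −1.36, with a standard error 1.97 times as large.

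The numbers of calls moved by over 1.5 times with a 2-fold minimum and with the covariate, and those of list and starch genes in epfl4 epfl6 also without WT replicate 1 or without epfl4 epfl6 replicate 2. A 2-fold minimum left 328 probe sets in er-2, 512 in epfl4 epfl6 and 244 between the mutants; of list genes it left 2, 0 and 1, and of starch genes 0 in each. The covariate left 648, 1 (AT5G16920) and 66 probe sets, 3, 0 and 0 list genes, and 1, 0 and 0 starch genes; the SWEET11 difference in epfl4 epfl6 reversed to −0.22. Leaving out each array gave 3257 to 4658, 6264 to 7723 and 3324 to 4598 probe sets, 4 to 6, 4 to 7 and 5 to 6 list genes, and 2 to 3, 1 to 3 and 2 to 3 starch genes. In epfl4 epfl6, 4 list genes and 1 starch gene remained called without WT replicate 1, and likewise without epfl4 epfl6 replicate 2. With the replicate block 4367, 7449 and 4248 probe sets were called, and of the list genes' calls it ended that of AT5G39790 in epfl4 epfl6 and added AT1G62660 between the mutants. For the 17 list genes in 3 comparisons, the 15 other alternatives kept 720 of 762 calls or non-calls, ended 28 and added 14, with no reversal. Between 8 and 10 of the genes most like QQS stayed among the 10 without an array. The graded order held for 651 probe sets after median centring and 851 after quantile normalization. The causes were not tested, and the number of arrays limits all of these counts.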
